A study of Mus musculus with 10 samples.

Results

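Solute carriers that move amino acids, sugars and related small molecules were followed across 5 mouse cell lines. The members are the genes of 10 families of solute carriers, named Slc1a, Slc2a, Slc3a, Slc5a, Slc6a, Slc7a, Slc16a, Slc36a, Slc38a and Slc43a, and were chosen by the gene symbol of the probe, leaving out Slc1a3, Slc6a15 and Slc38a4. In all, 88 genes with 123 probes met this rule, of 16593 genes and 25697 probes on the array. The symbol alone brought in Slc7a6os, which lies next to Slc7a6 on the opposite strand and is not itself a transporter.

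Messenger RNA was profiled on 10 Illumina mouse arrays of 1 colour, 2 for each line, from column-purified RNA that was linearly amplified and labelled with biotin. The tested lines were piPS-2F, parthenogenetic induced pluripotent cells obtained from neural stem cells in which Oct4 and Klf4 were overexpressed (1 label of replicate 2 names Klf5 instead), pESC-B, embryonic stem cells of parthenogenetic origin purified by SSEA-1 (a surface antigen of mouse pluripotent cells), and fESC, female embryonic stem cells labelled OG2 (a mouse strain with a green fluorescent reporter under the Oct4 promoter). They were set against each other and against pNSC, parthenogenetic neural stem cells, and fNSC, neural stem cells of a female. Parthenogenetic cells descend from an egg that developed without sperm, so piPS-2F, pESC-B and pNSC carry maternal chromosomes only. The labels do not say whether piPS-2F is 1 clone, whether the introduced genes were still active, or whether the pESC-B cells share an origin with pNSC. The series speaks of 5 samples in duplicate, so the 2 arrays of a line may be technical duplicates, and p-values measure only the spread between them.

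Solute carriers are membrane proteins that let polar nutrients cross the cell membrane or the membranes of organelles. Members of the Slc2 family let glucose flow down its gradient, Slc5 members carry sugars, inositol or vitamins with sodium, and Slc16 members carry lactate and other monocarboxylates. Amino acids enter through the Slc1, Slc6, Slc7, Slc36, Slc38 and Slc43 families, which differ in the amino acids they accept and in the ions they move. Several Slc7 proteins reach the cell surface only when bound to the heavy chain encoded by Slc3a2. In the brain, glial members clear glutamate, glycine and GABA from the space around synapses, and mouse embryonic stem cells are known for a high uptake of glucose and of several amino acids.

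The unit is the log2 signal, the intensity after background correction and quantile normalization. A probe counted as detected when the deposited detection p was under 0.01, and a listed detection p of 0 stands for a value under 0.00125, the smallest one listed above 0. Between 9938 and 11837 of the 25697 probes were detected per array, and between 27 and 38 of the 123 member probes, with 27 on each fESC array and 33 to 38 on the others. The lowest log2 signal of a detected probe was 5.85 and 5.98 on the fESC arrays and 5.31 to 5.56 elsewhere, so dim transporters were harder to detect in fESC. Mean intensity was 287 to 327 on the piPS-2F and pESC-B arrays and 476 to 625 on the others, and line and brightness cannot be told apart. All 5 pluripotency markers (Pou5f1, Nanog, Zfp42, Dppa5a and Utf1) were detected on both arrays of piPS-2F, pESC-B and fESC, and 4 of 5 neural stem cell markers (Nes, Fabp7, Olig2 and Slc1a3) on both arrays of pNSC and fNSC. Pax6, the other neural stem cell marker listed, had no probe detected on both arrays of any line, so it was not tested. Dppa5a was also detected on both fNSC arrays (mean 5.55) and Zfp42 on 1 pNSC array. Mbp, an oligodendrocyte marker, was detected on both arrays of piPS-2F and pESC-B, 1 of fESC and no neural array. Dcx, a neuron marker, was detected on both arrays of pNSC alone. Of 4 tested fibroblast markers, all 4 were detected on both arrays of each pluripotent line and 2 in each neural line, with mean log2 signals of 7.01 to 12.13 in piPS-2F, 5.99 to 11.01 in pESC-B and 6.66 to 12.13 in fESC, against 4.49 to 8.99 in pNSC and 4.48 to 7.26 in fNSC. Col1a1 and Dcn were detected on no array of a neural line. Nes and Slc1a3 were also detected on both arrays of each pluripotent line, as were Gata6 and Cdx2, markers of extraembryonic endoderm and trophectoderm, while Eomes, the other trophectoderm marker tested, was detected in pESC-B and fESC and not in piPS-2F. Markers were tested only where a probe was detected on both arrays of a line. Of the markers with a probe, 1 of 2 for oligodendrocytes, 1 of 4 for neurons and 1 of 4 for extraembryonic endoderm passed. It was 2 of 3 for trophectoderm and 4 of 5 for fibroblasts. Tubb3, Syt1, Snap25, Gata4, Sox17, Afp, Krt7 and Col1a2 were among those that did not pass. The median gap between duplicate arrays over the 45 transporters tested was 0.12 to 0.24 log2 units by line.

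Of the 88 transporter genes, 45 had a probe detected on both arrays of at least 1 line and were tested, among 9220 genes over the whole array. The other 43 were not tested, among them 34 whose probes were detected on no array, 8 with a probe detected on 1 array (Slc16a3, Slc16a4, Slc2a10, Slc43a3, Slc5a4a, Slc6a12, Slc6a7 and Slc7a9) and Slc1a7 on 2. The families differed in how many members passed. It was 5 of 6 genes for Slc1a, 6 of 11 for Slc2a, the 1 gene of Slc3a, 5 of 11 for Slc5a, 5 of 17 for Slc6a, 11 of 16 for Slc7a, 4 of 12 for Slc16a, 1 of 3 for Slc36a, 7 of 9 for Slc38a and 0 of 2 for Slc43a. Dopamine, serotonin, proline and neuronal glycine carriers (Slc6a3, Slc6a4, Slc6a7 and Slc6a5) were among the Slc6a genes that were not tested, and so were Slc2a2 and Slc2a4, the liver and insulin-responsive glucose carriers. The lactate carriers Slc16a1 and Slc16a3, the glutamine carrier Slc38a1 and Slc43a3 also remained untested, with a lowest detection p of 0.0125 for the Slc16a1 probe. The others with no detected probe were Slc16a7, Slc16a8, Slc16a11, Slc16a12, Slc16a14, Slc2a5, Slc2a12, Slc36a2, Slc36a3, Slc38a11, Slc43a2, Slc5a2, Slc5a5, Slc5a7, Slc5a8, Slc5a9, Slc6a13, Slc6a14, Slc6a17, Slc6a19, Slc6a20a, Slc6a20b, Slc6a21, Slc7a12, Slc7a13, Slc7a14 and Slc7a15. Of the 45 tested, 26 were detected on both arrays of piPS-2F, 26 of pESC-B and 22 of fESC, against 29 of pNSC and 29 of fNSC.

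Detection differed between the lines. In the tested set, 12 genes were detected on both arrays of all 5 lines, among them Slc2a1, Slc2a3, Slc6a6, Slc6a8, Slc6a9 and Slc7a5. Another 3 (Slc7a3, Slc7a7 and Slc38a5) were detected on both arrays of all 3 pluripotent lines and on no neural array, and 9 in some pluripotent lines and on no neural array. In the opposite direction, 4 (Slc1a2, Slc2a13, Slc38a3 and Slc6a11) were detected on both arrays of both neural lines and on no pluripotent array, and 4 (Slc1a6, Slc2a9, Slc6a2 and Slc7a10) on both arrays of 1 neural line and on no pluripotent array. The remaining 13 followed other patterns. Neither these patterns nor the counts per line above were taken over all genes tested, so whether transporters differ from other genes in them is not known. Genes of these one-sided patterns entered the test through the lines where they were bright, so a difference was built into them. In bulk RNA of this kind, fewer cells that use a gene and less of its RNA in each cell cannot be told apart.

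**Figure D1:**
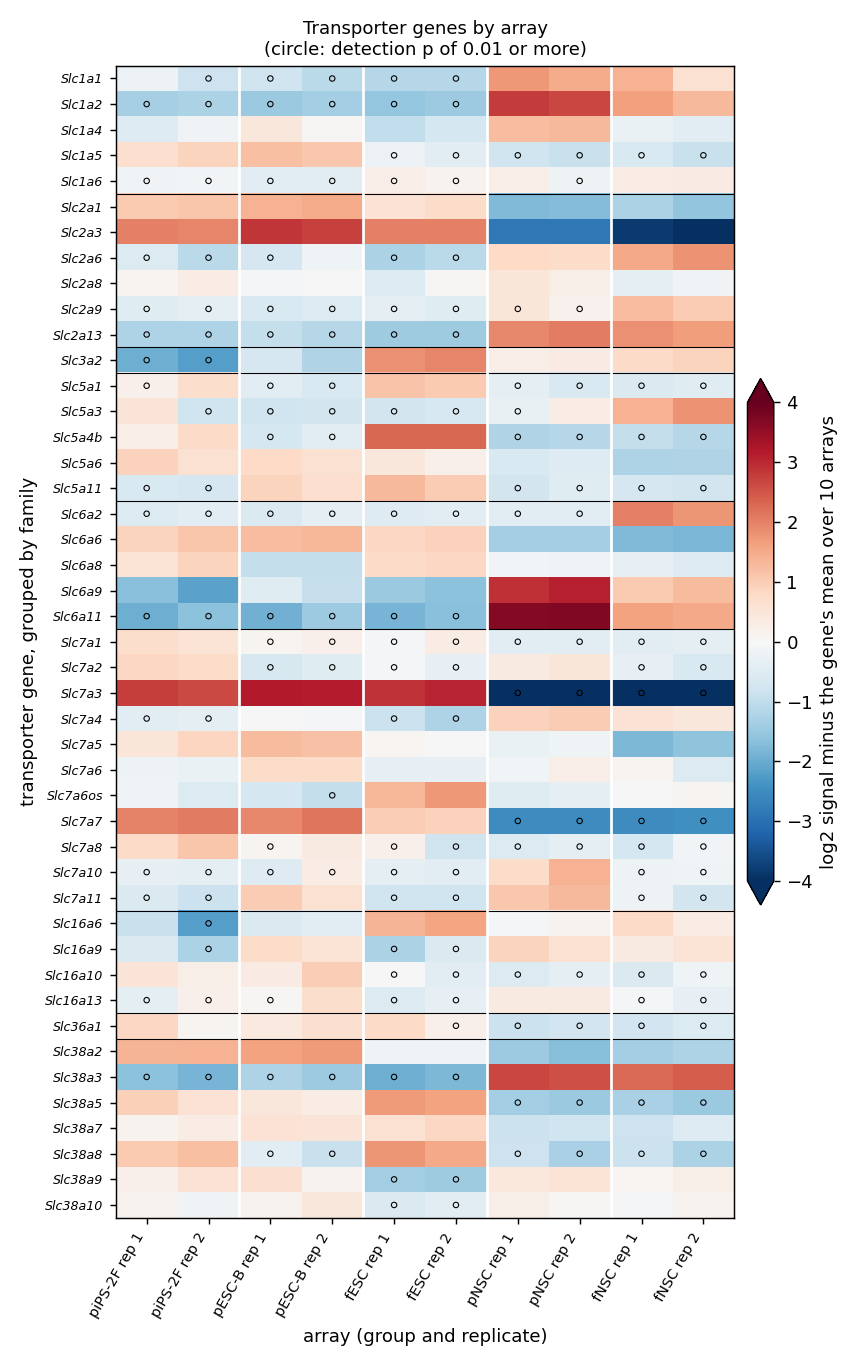
Log2 signal of the 45 tested transporter genes on each of the 10 arrays, minus the gene's mean over the arrays, with genes grouped by family and circles where detection p was 0.01 or more. Colours stop at 4 log2 units either way. Slc2a3 and Slc7a3 are far above their means in piPS-2F, pESC-B and fESC, and Slc1a2, Slc38a3 and Slc6a11 in pNSC and fNSC.

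Many transporters, like many genes in general, differed between pluripotent and neural lines. A gene was called, and is said below to have risen or fallen, at a Benjamini-Hochberg adjusted p under 0.05 over all genes tested in limma and a change of 2-fold or more. In piPS-2F minus pNSC 15 of the 45 rose and 14 fell, which is 64.4% called, where 53.4% of all genes tested were called (27% higher and 26.4% lower). For fESC minus fNSC 18 rose and 13 fell, or 68.9%, where 48.6% of all genes tested were called (23.9% higher and 24.8% lower). The median difference of the 45 was -0.06 and 0.16 in these comparisons, where that of all genes was 0.03 and 0.02. They share no arrays. Of the 29 and 31 genes called, 12 rose in both (41.4% and 38.7% of each list), 9 fell in both (31% and 29%), and 1, Slc3a2, fell in piPS-2F and rose in fESC. Over all genes tested, those called in each list included 32.7% and 35.9% that rose in both, 33.3% and 36.5% that fell in both, and 1.4% and 1.54% with opposite calls. Of the 45 transporters, 7 were called for piPS-2F alone, 9 for fESC alone and 7 for neither. Over all genes tested, 17.4% were called for piPS-2F alone, 12.7% for fESC alone and 33.9% for neither. With a background offset of 50, 21 and 24 of the 45 were called in the 2 comparisons, where 42.9% and 39% of all genes were. With no detection filter it was 29 and 32 of 88, where 29.9% and 27.4% of all genes were called. The counts by family given below rest on few genes each and stand beside the 53.4% and 48.6% of all genes called.

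**Figure D2:**
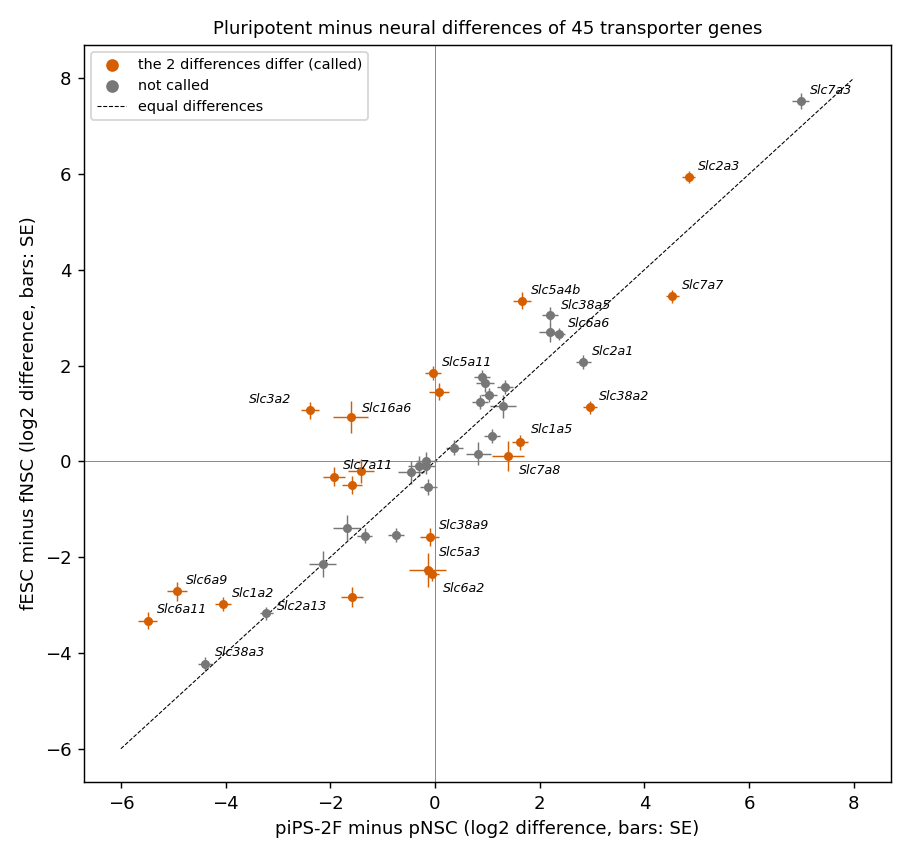
Log2 difference of each of the 45 tested transporter genes in piPS-2F minus pNSC (horizontal axis) and fESC minus fNSC (vertical axis), with standard errors as bars and the dashed line marking equal differences. Orange points are the 20 genes whose 2 differences were called different. Slc7a3 and Slc2a3 lie at the upper right, Slc38a3, Slc6a11 and Slc6a9 at the lower left, and Slc3a2 lies at -2.39 and 1.07.

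Glucose carriers divided by member. Slc2a1 and Slc2a3, the main carriers of glucose into growing cells and neurons, rose in piPS-2F and fESC against the neural lines, and Slc2a6 and Slc2a13 fell. Slc2a1 had log2 signals of 12.85 and 12.93 in piPS-2F, 13.19 and 13.28 in pESC-B and 12.39 and 12.53 in fESC, against 10.03 and 10.08 in pNSC and 10.53 and 10.24 in fNSC, with no overlap between pluripotent and neural arrays. It rose 7.13-fold in piPS-2F over pNSC, a log2 difference of 2.83 (SE 0.14, adjusted p = 2.9e-08), and 4.22-fold in fESC over fNSC, a difference of 2.08 (SE 0.14, adjusted p = 3.02e-07). Slc2a3 gave 13.34 and 13.29 in piPS-2F, 14.18 and 14.06 in pESC-B and 13.36 and 13.35 in fESC, against 8.46 and 8.47 in pNSC and 7.50 and 7.35 in fNSC. Its differences were 4.85 (SE 0.12, adjusted p = 4.38e-10) and 5.93 (SE 0.12, adjusted p = 1.58e-10), and pESC-B was the highest of the 3 pluripotent lines on both arrays. Slc2a3 was also higher in pNSC than in fNSC by 1.05 (SE 0.12, adjusted p = 0.000154), a call lost without fNSC replicate 2, where the difference was 0.97. The promoter of Slc2a1, which rose in piPS-2F and fESC, is shown from RefSeq on GRCm38.p6 (chr4:119108495-119108794, plus strand), running from 250 bases before to 50 bases after the gene's start.
Slc2a1: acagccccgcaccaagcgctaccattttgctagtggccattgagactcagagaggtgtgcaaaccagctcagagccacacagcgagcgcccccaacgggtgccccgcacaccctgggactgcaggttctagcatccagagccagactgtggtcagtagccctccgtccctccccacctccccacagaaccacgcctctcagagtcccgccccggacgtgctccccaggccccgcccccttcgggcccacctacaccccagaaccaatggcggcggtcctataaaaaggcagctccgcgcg

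Slc2a13, which carries inositol together with protons, had 4.60 and 4.60 in piPS-2F, 4.88 and 4.71 in pESC-B and 4.41 and 4.41 in fESC, against 7.76 and 7.88 in pNSC and 7.68 and 7.50 in fNSC, and was detected on no pluripotent array (detection p 0.108 to 0.825). Slc2a13 was at least 5.12-fold lower in piPS-2F cells than in pNSC (adjusted p = 7.39e-09) and at least 3.19-fold lower in fESC than in fNSC (adjusted p = 8.5e-09). These bounds set the mean of the detected line against the undetected line, where each array contributed the probe's signal or its own dimmest detected signal, whichever was larger. Slc2a6 was at least 2.4-fold lower in piPS-2F cells than in pNSC and at least 3.23-fold lower in fESC than in fNSC, with 5.40 and 4.88 in piPS-2F and 4.67 and 4.87 in fESC, against 6.76 and 6.69 in pNSC and 7.47 and 7.74 in fNSC. Slc2a9, a urate carrier, was detected on both arrays of fNSC alone and was at least 1.18-fold lower in fESC than in fNSC. Slc2a8, a carrier of internal membranes, was detected on every array and was called in no comparison, with a mean of 6.99 ± 0.16 in pNSC, the highest, and 6.38 ± 0.16 in fNSC, the lowest (SD, n = 2). In all, 2 of the 6 tested Slc2a genes rose and 2 fell in piPS-2F minus pNSC, and 2 rose and 3 fell in fESC minus fNSC.

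**Figure D3:**
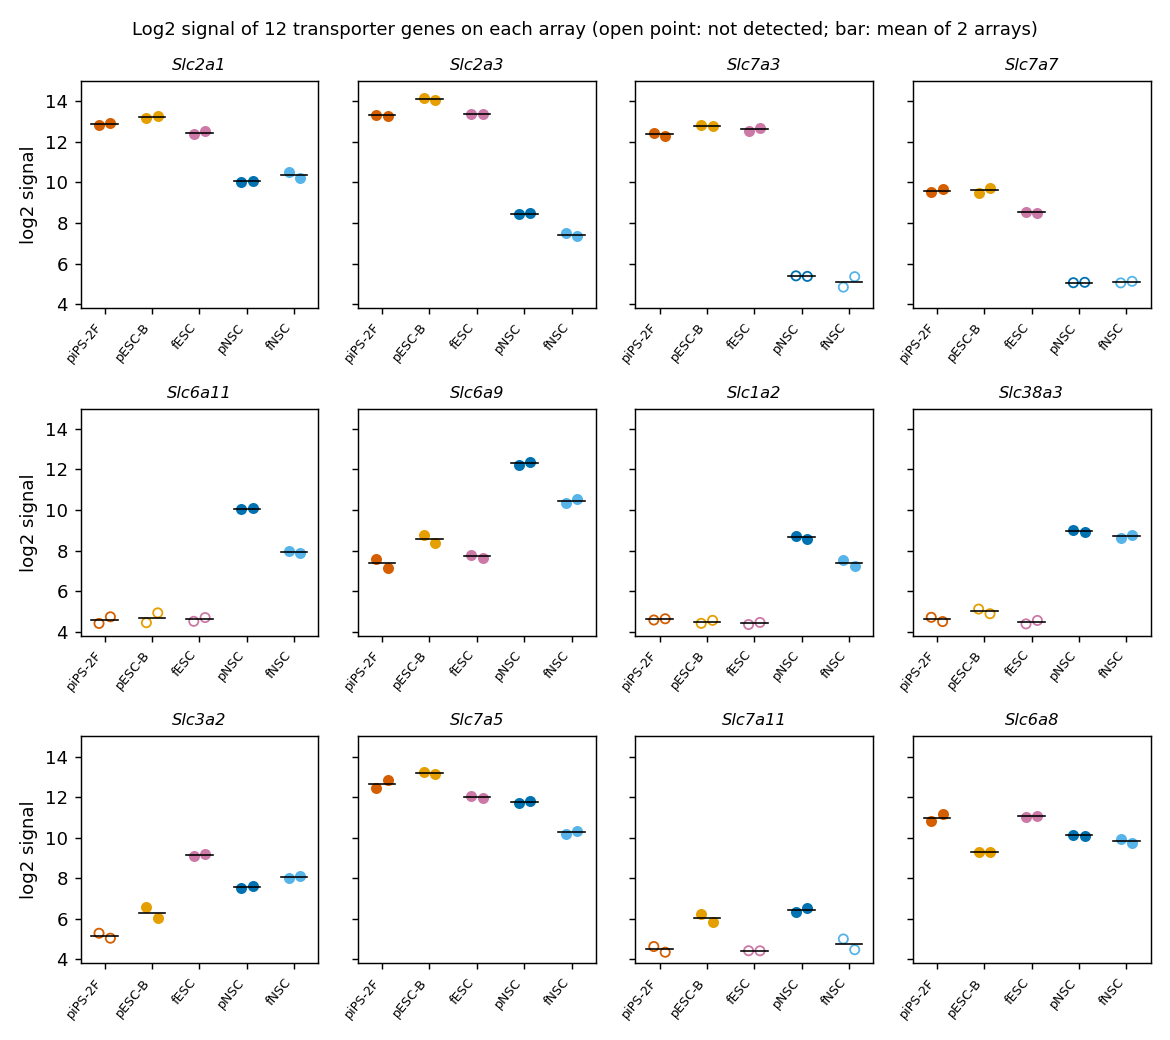
Log2 signal of 12 transporter genes on each array, by line, with filled points for detected and open points for undetected arrays and a bar at the mean of 2 arrays. Duplicates lie close together, Slc2a1, Slc2a3, Slc7a3 and Slc7a7 are higher in piPS-2F, pESC-B and fESC, and Slc6a11, Slc6a9, Slc1a2 and Slc38a3 in pNSC and fNSC. Slc3a2 is undetected in piPS-2F alone.

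Sodium-coupled carriers of sugars, inositol and vitamins differed among the pluripotent lines themselves. Slc5a6, the carrier of biotin and pantothenate, had 10.18 and 9.88 in piPS-2F, 10.07 and 9.86 in pESC-B and 9.72 and 9.47 in fESC, against 8.65 and 8.74 in pNSC and 8.04 and 8.05 in fNSC. It rose by 1.34 (SE 0.15, adjusted p = 1.63e-05) in piPS-2F minus pNSC and 1.55 (SE 0.15, adjusted p = 5.92e-06) in fESC minus fNSC, and pluripotent and neural arrays did not overlap. Slc5a4b, a relative of the sodium-glucose carriers, had 5.78 and 6.27 in piPS-2F and 7.82 and 7.81 in fESC and was undetected in pESC-B, pNSC and fNSC (detection p 0.0576 to 0.981). Slc5a4b was higher in piPS-2F cells than in pNSC, by at least 1.42-fold (adjusted p = 9.12e-06), at least 5.44-fold higher in fESC than in fNSC (adjusted p = 4.99e-08), and lower in piPS-2F cells than in fESC, at a log2 difference of -1.79 (SE 0.18, adjusted p = 2.02e-05). Slc5a11, an inositol carrier, was not detected in piPS-2F (4.66 and 4.58, detection p 0.262 to 0.373), while both arrays of pESC-B (6.15 and 5.94) and of fESC (6.55 and 6.28) detected it. Slc5a11 was at least 1.5-fold lower in piPS-2F cells than in pESC-B (adjusted p = 9.82e-05) and at least 1.94-fold lower than in fESC (adjusted p = 6.88e-06). Slc5a1, the sodium-glucose carrier of the intestine, was detected on both arrays of fESC and 1 of piPS-2F, and it was at least 1.89-fold higher in fESC than in fNSC (adjusted p = 1.1e-05).

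Slc5a3, which brings in inositol with sodium and helps cells hold their volume, was brightest in fNSC. Its signals were 5.74 and 4.41 in piPS-2F, 4.41 and 4.49 in pESC-B and 4.50 and 4.57 in fESC, against 4.93 and 5.50 in pNSC and 6.62 and 7.0 in fNSC. The piPS-2F duplicates differed by 1.33, the widest gap between duplicates among the tested transporters. Slc5a3 was at least 1.86-fold lower in fESC than in fNSC (adjusted p = 0.000188) and lower in pNSC than in fNSC, at a log2 difference of -1.59 (SE 0.36, adjusted p = 0.00709). That call was lost without fNSC replicate 2 (-1.38) or pNSC replicate 1 (-1.27), and in piPS-2F minus pNSC, where the difference was -0.14 (SE 0.36, adjusted p = 0.731), the gene was not called. Without piPS-2F replicate 2 the difference of piPS-2F from pESC-B was 1.33 and from fESC 1.24, both of them then called.

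Carriers of acidic and small neutral amino acids moved in both directions. Slc1a2, the main glutamate carrier of astrocytes, was detected in the neural lines alone, with 4.58 and 4.64 in piPS-2F, 4.41 and 4.56 in pESC-B and 4.36 and 4.46 in fESC, against 8.72 and 8.59 in pNSC and 7.56 and 7.22 in fNSC. Slc1a2 was at least 9.14-fold lower in piPS-2F cells than in pNSC (adjusted p = 3.81e-09), at least 2.78-fold lower in fESC than in fNSC (adjusted p = 3.12e-08), and higher in pNSC than in fNSC by 1.27 (SE 0.15, adjusted p = 0.000137). One other Slc1a2 probe gave 8.20 in pNSC and 6.92 in fNSC, and another 5.78 and 5.75, a difference of 0.03 between the neural lines. Slc1a1, which carries glutamate and cysteine, had 5.51 and 4.92 in piPS-2F and 4.61 and 4.59 in fESC, against 7.48 and 7.24 in pNSC and 7.14 and 6.35 in fNSC. Its difference was -2.15 (SE 0.26, adjusted p = 2.83e-05) in piPS-2F minus pNSC, and the gene was at least 1.78-fold lower in fESC than in fNSC (adjusted p = 3.11e-05).

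Slc1a4, a carrier of alanine, serine and cysteine, was detected on every array, with 8.81 and 9.19 in piPS-2F, 9.77 and 9.38 in pESC-B and 8.33 and 8.63 in fESC, against 10.55 and 10.61 in pNSC and 9.07 and 8.89 in fNSC. Its difference was -1.58 (SE 0.19, adjusted p = 2e-05) in piPS-2F minus pNSC and 1.60 (SE 0.19, adjusted p = 0.000135) in pNSC minus fNSC, both called, and -0.50 (SE 0.19, adjusted p = 0.031) in fESC minus fNSC, under the 2-fold minimum. The excess of pESC-B over fESC, 1.09 (SE 0.19, adjusted p = 0.000601), was lost without pESC-B replicate 1 (0.89) or fESC replicate 1 (0.94). Slc1a5, a glutamine carrier of dividing cells, was detected in piPS-2F (6.09 and 6.31) and pESC-B (6.63 and 6.49) and not in fESC (5.19 and 4.98), pNSC (4.63 and 4.54) or fNSC (4.83 and 4.54). Slc1a5 was higher in piPS-2F cells than in pNSC, by at least 1.61-fold (adjusted p = 3.86e-06), at least 1.22-fold higher in piPS-2F cells than in fESC and at least 1.56-fold higher in pESC-B than in fESC. Its other kept probe gave 0.60 in piPS-2F minus fESC, which was not called. Slc1a6, a glutamate carrier known from Purkinje cells, stayed near the detection limit (group means 5.06 to 5.80) and was called in no comparison. Of 5 tested Slc1a genes, 1 rose and 3 fell in piPS-2F minus pNSC, and 2 fell in fESC minus fNSC.

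Carriers of the Slc6 family, which use sodium and chloride, held genes with a large excess in neural lines and others with one in pluripotent lines. Slc6a11, a GABA carrier of astrocytes, had 4.41 and 4.74 in piPS-2F, 4.45 and 4.93 in pESC-B and 4.51 and 4.70 in fESC, against 10.04 and 10.08 in pNSC and 7.98 and 7.88 in fNSC, and the pluripotent arrays had detection p 0.0952 to 0.816. Slc6a11 was at least 24.2-fold lower in piPS-2F cells than in pNSC (adjusted p = 2.02e-09), at least 4.05-fold lower in fESC than in fNSC (adjusted p = 6.34e-08), and higher in pNSC than in fNSC by 2.13 (SE 0.18, adjusted p = 1.7e-05). Slc6a9, the glial glycine carrier, was detected on every array, with 7.60 and 7.16 in piPS-2F, 8.79 and 8.38 in pESC-B and 7.80 and 7.64 in fESC, against 12.22 and 12.38 in pNSC and 10.32 and 10.55 in fNSC. Its differences were -4.92 (SE 0.19, adjusted p = 5.92e-09) in piPS-2F minus pNSC, -2.71 (SE 0.19, adjusted p = 4.5e-07) in fESC minus fNSC and 1.86 (SE 0.19, adjusted p = 6.11e-05) in pNSC minus fNSC. Beside these genes, the 3 astrocyte markers measured were detected on both arrays of pNSC and fNSC and on both arrays of no pluripotent line. Aqp4, the water channel of astrocyte end feet, was at least 20.2-fold lower in piPS-2F cells than in pNSC and at least 1.73-fold lower in fESC than in fNSC, and higher in pNSC than in fNSC by 3.09 (SE 0.14, adjusted p = 2.05e-07). For Gfap the pNSC minus fNSC difference was 0.39 (SE 0.17, adjusted p = 0.101), and for Aldh1l1 it was -1.58 (SE 0.21, adjusted p = 0.00037). The part of astrocyte-like cells in the transporter differences was not tested. The promoter of Slc6a11 is shown, from RefSeq on GRCm38.p6 (chr6:114130991-114131290, plus strand), as that of the transporter with the widest fall in piPS-2F, with a match to a Klf motif in capitals.
Slc6a11: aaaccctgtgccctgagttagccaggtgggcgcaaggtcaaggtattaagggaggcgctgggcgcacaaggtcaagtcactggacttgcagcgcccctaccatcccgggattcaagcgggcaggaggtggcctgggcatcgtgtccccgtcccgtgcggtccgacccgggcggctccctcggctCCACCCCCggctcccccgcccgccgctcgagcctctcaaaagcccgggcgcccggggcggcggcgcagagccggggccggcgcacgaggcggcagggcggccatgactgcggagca

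Slc6a6, the taurine carrier, had 11.85 and 12.05 in piPS-2F, 12.18 and 12.29 in pESC-B and 11.77 and 11.88 in fESC, against 9.58 and 9.59 in pNSC and 9.20 and 9.12 in fNSC. It rose by 2.36 (SE 0.13, adjusted p = 6.17e-08) in piPS-2F minus pNSC and 2.66 (SE 0.13, adjusted p = 2.72e-08) in fESC minus fNSC, and the 3 pluripotent lines differed from each other by under 2-fold. Slc6a8, the creatine carrier, instead set pESC-B apart, with 10.81 and 11.14 in piPS-2F, 9.31 and 9.31 in pESC-B and 11.04 and 11.09 in fESC, against 10.15 and 10.09 in pNSC and 9.93 and 9.74 in fNSC. It was higher in piPS-2F cells than in pESC-B by 1.67 (SE 0.14, adjusted p = 2.91e-05) and lower in pESC-B than in fESC, at a log2 difference of -1.75 (SE 0.14, adjusted p = 5.52e-06), while piPS-2F minus fESC gave -0.09 (SE 0.14, adjusted p = 0.639). Slc6a2, the noradrenaline carrier, was detected in fNSC alone (7.14 and 6.87), by 1 of its 3 probes. Slc6a2 was at least 2.8-fold lower in pNSC than in fNSC (adjusted p = 1.53e-06) and at least 2.13-fold lower in fESC. Of the 5 tested Slc6a genes, 1 rose and 2 fell in piPS-2F minus pNSC, and 2 rose and 3 fell in fESC minus fNSC.

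The Slc3a2 heavy chain and the exchangers known to pair with it had different patterns over the lines. Slc3a2 itself, read by 1 probe, had 5.29 and 5.04 in piPS-2F, 6.57 and 6.05 in pESC-B and 9.08 and 9.21 in fESC, against 7.51 and 7.59 in pNSC and 8.02 and 8.13 in fNSC. It was below detection in piPS-2F alone (detection p 0.0238 to 0.0589), which was at least 4.25-fold lower than pNSC (adjusted p = 6.11e-07) and at least 12.8-fold lower than fESC (adjusted p = 1.8e-07), and fESC was the brightest line. In fESC minus fNSC the difference was 1.07 (SE 0.18, adjusted p = 0.000294) just past 2-fold, a call lost without fESC replicate 2, with median scaling of the arrays (0.69) and with a larger background offset (0.98). In pESC-B minus fESC it was -2.84 (SE 0.18, adjusted p = 1e-06). Slc7a5, the light chain that exchanges leucine and other large neutral amino acids, had 12.46 and 12.83 in piPS-2F, 13.23 and 13.13 in pESC-B and 12.05 and 11.97 in fESC, against 11.70 and 11.81 in pNSC and 10.17 and 10.34 in fNSC and was detected on every array. It rose in fESC over fNSC by 1.75 (SE 0.15, adjusted p = 2.18e-06), in pNSC over fNSC by 1.49 (SE 0.15, adjusted p = 5.8e-05) and in pESC-B over fESC by 1.17 (SE 0.15, adjusted p = 0.000107). Its difference in piPS-2F minus pNSC was 0.89 (SE 0.15, adjusted p = 0.00033), under the 2-fold minimum, and 1.07 without piPS-2F replicate 1. The promoter of Slc3a2, shown as that of the gene with opposite calls in piPS-2F and fESC, is from RefSeq on GRCm38.p6 (chr19:8713848-8714147, minus strand), with a Klf motif in capitals.
Slc3a2: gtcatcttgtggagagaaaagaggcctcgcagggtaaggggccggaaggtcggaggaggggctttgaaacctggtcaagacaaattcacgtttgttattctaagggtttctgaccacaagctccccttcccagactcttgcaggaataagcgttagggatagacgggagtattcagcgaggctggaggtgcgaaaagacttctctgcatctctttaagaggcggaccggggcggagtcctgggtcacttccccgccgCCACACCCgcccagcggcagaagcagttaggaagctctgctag

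Slc7a7, which exchanges cationic for neutral amino acids, was detected in all pluripotent lines and in neither neural line, with 9.55 and 9.65 in piPS-2F, 9.50 and 9.71 in pESC-B and 8.56 and 8.49 in fESC, against 5.06 and 5.08 in pNSC and 5.05 and 5.13 in fNSC. Slc7a7 was higher in piPS-2F cells than in pNSC, by at least 16.9-fold (adjusted p = 8.1e-10), and at least 8.91-fold higher in fESC than in fNSC (adjusted p = 4.94e-09). piPS-2F exceeded fESC by 1.07 (SE 0.13, adjusted p = 7.75e-05), and the other kept probe gave 0.74 there, under the 2-fold minimum. Slc7a8, a carrier of neutral amino acids, was detected on both arrays of piPS-2F (6.09 and 6.45) and 1 of pESC-B, and the piPS-2F level was at least 1.68-fold above that of pNSC (adjusted p = 0.00166). Its excess over fESC, at least 1.28-fold (adjusted p = 0.00622), was lost without fESC replicate 2, where the log2 difference was 0.73. Slc7a10, which carries small neutral amino acids including serine, was detected on both arrays of pNSC alone and was at least 1.39-fold lower in piPS-2F. Slc7a6, the near relative of Slc7a7, was detected on every array and was called in 1 comparison, at 1.07 (SE 0.21, adjusted p = 0.00139) in pESC-B minus fESC.

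Slc7a11 takes up cystine in exchange for glutamate and feeds glutathione synthesis. It had 4.63 and 4.35 in piPS-2F, 6.22 and 5.84 in pESC-B and 4.42 and 4.42 in fESC, against 6.31 and 6.53 in pNSC and 5.01 and 4.48 in fNSC, detected on both arrays of pESC-B and pNSC and on no array of the other lines. Slc7a11 was at least 1.94-fold lower in piPS-2F cells than in pNSC (adjusted p = 8.57e-06), at least 1.48-fold lower in piPS-2F cells than in pESC-B (adjusted p = 0.000391), at least 1.08-fold higher in pESC-B than in fESC and at least 2.07-fold higher in pNSC than in fNSC (adjusted p = 0.000174). The 2 lines in which it was detected are both parthenogenetic, and the parthenogenetic piPS-2F did not share the signal. Of the 7 tested genes of this list, the exchangers and the Slc3a2 heavy chain together, 2 rose and 3 fell in piPS-2F minus pNSC. In fESC minus fNSC 3 rose and none fell. Slc3a2 is 1 of the 3 that fell and 1 of the 3 that rose. The promoter of Slc7a11 is shown, from RefSeq on GRCm38.p6 (chr3:50443564-50443863, minus strand), as the only one among the 33 tested transporters with a promoter entry that matched the octamer motif of Oct4. Capitals mark that match and those to the amino acid response element described further on.
Slc7a11: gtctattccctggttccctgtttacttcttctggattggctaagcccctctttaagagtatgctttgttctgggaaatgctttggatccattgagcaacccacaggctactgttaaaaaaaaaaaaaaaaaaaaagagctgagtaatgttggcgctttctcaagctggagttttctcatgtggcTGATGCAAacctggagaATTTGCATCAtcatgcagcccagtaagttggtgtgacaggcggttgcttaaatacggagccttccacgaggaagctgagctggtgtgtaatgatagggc

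Slc7a3, a carrier of arginine and lysine, gave the widest difference of all tested transporters. Its signals were 12.43 and 12.30 in piPS-2F, 12.81 and 12.78 in pESC-B and 12.55 and 12.69 in fESC, against 5.40 and 5.37 in pNSC and 4.84 and 5.36 in fNSC. Slc7a3 was higher in piPS-2F cells than in pNSC, by at least 115-fold (adjusted p = 3.34e-10), and at least 152-fold higher in fESC than in fNSC (adjusted p = 2.14e-10), and the 3 pluripotent lines differed by under 2-fold. The other Slc7a3 probe stayed between 5.06 and 5.58 in all lines and was detected on 1 array of piPS-2F and 1 of pESC-B. The other arginine and lysine carriers were near the detection limit. Slc7a1 was detected on both arrays of piPS-2F alone (5.76 and 5.61) and was at least 1.12-fold higher than in pNSC (adjusted p = 6.45e-05). Slc7a2 was detected in piPS-2F (6.32 and 6.22) and pNSC (5.83 and 5.97) and not in pESC-B, fESC or fNSC, and was higher in piPS-2F cells than in pESC-B, by at least 1.68-fold (adjusted p = 0.000199). Slc7a4, a relative of these carriers, was at least 2.36-fold lower in piPS-2F cells than in pNSC and at least 1.26-fold lower in fESC than in fNSC. Of the 4 tested genes of this group, 2 rose and 1 fell in piPS-2F minus pNSC, and 1 rose and 1 fell in fESC minus fNSC.

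Sodium-coupled neutral amino acid carriers of the Slc38 family included genes with large changes in both directions. Slc38a3, the glutamine carrier of astrocytes, had 4.71 and 4.50 in piPS-2F, 5.12 and 4.89 in pESC-B and 4.39 and 4.56 in fESC, against 9.04 and 8.94 in pNSC and 8.62 and 8.77 in fNSC. Slc38a3 was at least 11.5-fold lower in piPS-2F cells than in pNSC (adjusted p = 2.13e-09) and at least 6.88-fold lower in fESC than in fNSC (adjusted p = 2.89e-09), and pNSC and fNSC differed by 0.29 (SE 0.15, adjusted p = 0.156). Slc38a5, which carries glutamine, serine and glycine, was detected in pluripotent lines alone, with 6.89 and 6.52 in piPS-2F, 6.40 and 6.24 in pESC-B and 7.65 and 7.55 in fESC, against 4.57 and 4.45 in pNSC and 4.63 and 4.45 in fNSC. Slc38a5 was higher in piPS-2F cells than in pNSC, by at least 2.28-fold (adjusted p = 4.49e-07), and at least 4.67-fold higher in fESC than in fNSC (adjusted p = 4.13e-08), while pESC-B was lower than fESC, at a log2 difference of -1.28 (SE 0.16, adjusted p = 7.12e-05). Slc38a8 was detected in piPS-2F (6.83 and 6.99) and fESC (7.54 and 7.31) and not in pESC-B (5.32 and 4.90) or the neural lines. Slc38a8 was higher in piPS-2F cells than in pESC-B, by at least 2.61-fold (adjusted p = 0.000199), and at least 3.73-fold lower in pESC-B than in fESC (adjusted p = 1.08e-05).

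Slc38a2, a carrier of small neutral amino acids that cells raise when amino acids run short, depended on the probe. The brighter of its 2 kept probes had 11.94 and 11.97 in piPS-2F, 12.18 and 12.29 in pESC-B and 10.42 and 10.44 in fESC, against 9.13 and 8.87 in pNSC and 9.23 and 9.36 in fNSC, with differences of 2.96 (SE 0.14, adjusted p = 1.78e-08) in piPS-2F minus pNSC and 1.53 (SE 0.14, adjusted p = 1.04e-05) in piPS-2F minus fESC. The other kept probe had 9.97 and 10.16 in piPS-2F, 10.46 and 10.53 in pESC-B and 11.45 and 11.64 in fESC, against 9.90 and 9.97 in pNSC and 10.47 and 10.12 in fNSC. It gave 0.13 in piPS-2F minus pNSC (adjusted p = 0.451) and -1.48 in piPS-2F minus fESC (adjusted p = 3.3e-05), so the order of piPS-2F and fESC turned with the probe. In fESC minus fNSC the 2 probes gave 1.13 and 1.25, both called. A further probe was detected on no array. Slc38a7, a glutamine carrier of lysosomes, rose by 1.03 (SE 0.15, adjusted p = 9.22e-05) in piPS-2F minus pNSC and 1.39 (SE 0.15, adjusted p = 1.08e-05) in fESC minus fNSC. Slc38a9, the lysosomal arginine sensor, was detected on both arrays of every line but fESC (4.62 and 4.59, detection p 0.32 to 0.37) and was higher in piPS-2F cells than in fESC, by at least 1.4-fold (adjusted p = 2.84e-05), and at least 1.42-fold higher in pESC-B than in fESC. Slc38a10, likewise undetected in fESC alone, was called in no comparison. Of the 7 tested Slc38a genes, 4 rose and 1 fell in piPS-2F minus pNSC, and 4 rose and 2 fell in fESC minus fNSC.

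**Figure D4:**
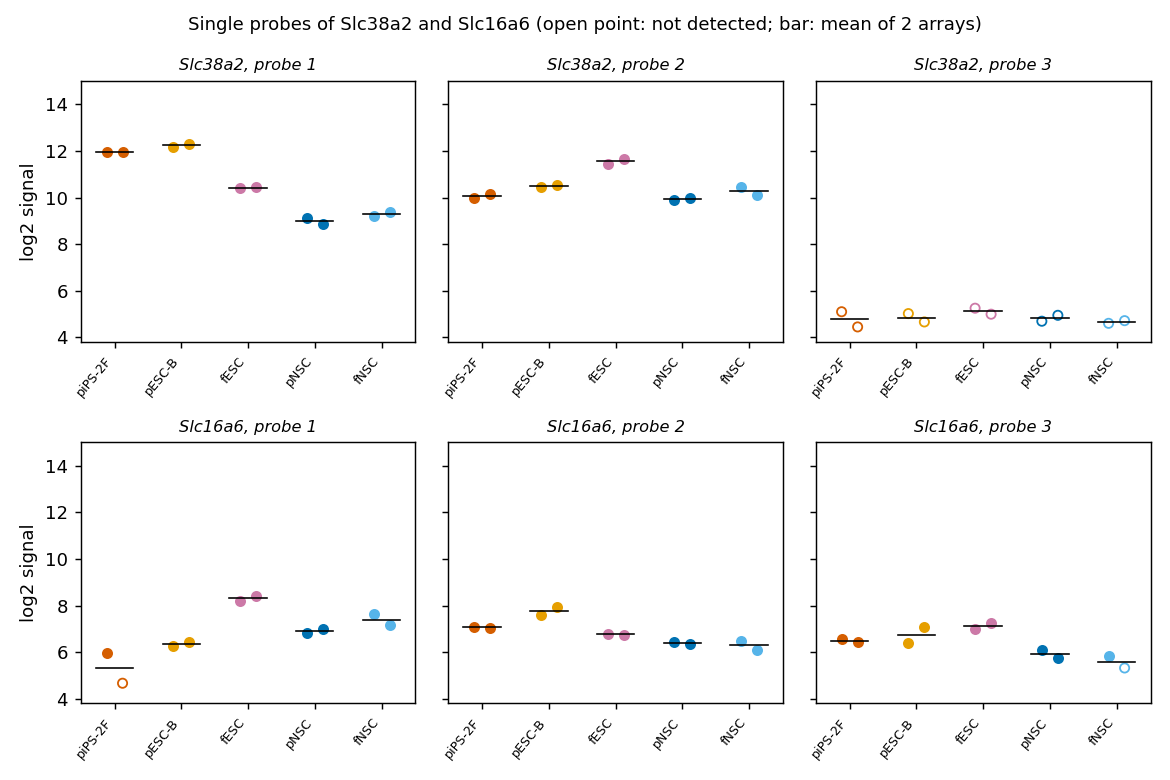
Log2 signal of the single probes of Slc38a2 (upper row) and Slc16a6 (lower row) on each array, in order of brightness over all arrays, with open points for undetected arrays and a bar at the mean of 2 arrays. For Slc38a2, fESC lies below piPS-2F and pESC-B by probe 1 and above them by probe 2. For Slc16a6, fESC is the highest line by probe 1 and lies below pESC-B by probe 2.

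Monocarboxylate and related carriers were few. Slc16a6, linked to the export of ketone bodies in zebrafish, had 3 kept probes that did not agree. By the probe used, its signals were 5.96 and 4.67 in piPS-2F, 6.29 and 6.45 in pESC-B and 8.21 and 8.43 in fESC, against 6.83 and 7.01 in pNSC and 7.63 and 7.16 in fNSC, with 1 of the piPS-2F arrays undetected. The difference was -1.61 (SE 0.34, adjusted p = 0.00131) in piPS-2F minus pNSC, where the other probes gave 0.55 and 0.67, so that their sign was the opposite one. It was -3.01 (SE 0.34, adjusted p = 4.78e-05) in piPS-2F minus fESC, where the other probes gave -0.63 and 0.30, neither of them called. Its call in piPS-2F minus pESC-B, -1.05 (SE 0.34, adjusted p = 0.0397), was lost when any 1 of 8 arrays was left out, down to -0.41 without piPS-2F replicate 2. Slc16a9 had 5.96 and 5.27 in piPS-2F, 7.28 and 7.08 in pESC-B and 5.28 and 5.96 in fESC, against 7.43 and 7.15 in pNSC and 6.91 and 7.10 in fNSC. It was lower in piPS-2F cells than in pESC-B, at a log2 difference of -1.57 (SE 0.26, adjusted p = 0.0016) and at least 2.41-fold higher in pESC-B than in fESC (adjusted p = 0.000549). Slc16a10, a carrier of aromatic amino acids, and Slc16a13 were called in no comparison. Slc36a1, a proton-coupled amino acid carrier of lysosomes and the gut, was detected on both arrays of piPS-2F (6.34 and 5.62) and pESC-B (5.88 and 6.15) and 1 of fESC (6.28 and 5.70). Slc36a1 was higher in piPS-2F cells than in pNSC, by at least 1.38-fold (adjusted p = 0.000724), and at least 1.53-fold higher in fESC than in fNSC (adjusted p = 0.0018), calls lost without piPS-2F replicate 1 (log2 difference 0.97) and without fESC replicate 1 (0.86).

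Within the pluripotent lines, piPS-2F minus pESC-B gave 4 transporters higher and 6 lower of 45, or 22.2% called, where 9.45% of all genes tested were called (4.5% higher and 4.95% lower). The median was -0.24 for the 45 and -0.02 for all genes. Higher in piPS-2F were Slc38a8, Slc6a8, Slc7a2 and Slc5a4b, and lower were Slc16a9, Slc7a11, Slc5a11, Slc6a9, Slc3a2 and Slc16a6. The smaller of these differences rested on single arrays. Slc5a4b, at least 1.41-fold higher, Slc6a9, at -1.21 (SE 0.19, adjusted p = 0.00121), and Slc3a2, at least 1.79-fold lower, all lost their call without pESC-B replicate 1, with log2 differences of 0.97 for Slc5a4b, just under 2-fold for Slc6a9 and -0.90 for Slc3a2, and without that array 7 of the 45 were called. Without piPS-2F replicate 2 the call was lost for Slc5a4b (0.86) and for Slc6a9 (-0.98). The count was 4 of 45 with a larger background offset, where 5.14% of all genes tested were called. It was 6 of 45 with median scaling, where 8.13% were called. Of the 4 tested fibroblast markers, 3 rose in piPS-2F against pESC-B (Acta2 by 1.12, Col1a1 by 1.02 and Dcn by 1.18), and their part in the transporter differences was not tested. pESC-B was the only sorted line.

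Against fESC, piPS-2F had 5 transporters higher and 5 lower, or 22.2%, close to the 23.7% of all genes tested (11.5% higher and 12.2% lower). Higher were Slc38a9, Slc38a2 by the probe used, Slc7a8, Slc1a5 and Slc7a7, and lower were Slc3a2, Slc16a6 by the probe used, Slc7a6os, Slc5a11 and Slc5a4b. With median scaling of the arrays 2 were higher and 6 lower, or 25% higher, where 27.8% of the calls over all genes were higher. Slc7a6os had 6.17 and 5.76 in piPS-2F, 5.61 and 5.37 in pESC-B and 7.64 and 8.04 in fESC, against 5.83 and 5.95 in pNSC and 6.33 and 6.44 in fNSC, and differed by -1.87 (SE 0.18, adjusted p = 2e-05) in piPS-2F minus fESC. Whether its probe reads this gene alone, which lies beside Slc7a6, was not tested, and Slc7a6 differed by 0.09 (SE 0.21, adjusted p = 0.732) there. In pESC-B minus fESC, 10 rose and 8 fell, or 40%, where 27% of all genes tested were called (14.2% higher and 12.8% lower). Higher in pESC-B were Slc38a9, Slc38a2 by the probe used, Slc7a11, Slc16a9, Slc1a5, Slc7a5, Slc1a4, Slc7a7, Slc7a6 and Slc7a4, and lower were Slc5a4b, Slc3a2, Slc7a6os, Slc38a8, Slc16a6 by the probe used, Slc6a8, Slc5a1 and Slc38a5. The other Slc38a2 probe gave -1.05 here and was called, and the other Slc16a6 probes gave 1.00, called higher, and -0.39, not called. The other Slc7a7 probe gave 0.52, not called. Slc7a4 was undetected in fESC, and its pESC-B mean of 5.71 lies below the dimmest detected fESC signals of 5.85 and 5.98. No least fold can be given for it, so its rise is not shown. Both comparisons set lines of dimmer arrays against brighter ones. They share the fESC arrays, and each shares the arrays of 1 more line with piPS-2F minus pESC-B.

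Between the neural lines 8 transporters were higher in pNSC and 2 lower than in fNSC, or 22.2% called, where 11.3% of all genes tested were called (5.11% higher and 6.24% lower). Higher in pNSC were Slc6a11, Slc6a9, Slc7a11, Slc1a4, Slc7a5, Slc1a2, Slc7a10 and Slc2a3, and lower were Slc6a2 and Slc5a3. The median was 0.10 for the 45 and 0.02 for all genes. The count was lower without fNSC replicate 2, where 48 transporters were tested, and higher without fNSC replicate 1, where 45 were. Thy1, a surface protein of fibroblasts and neurons, was also higher in pNSC by 3.17 (SE 0.24, adjusted p = 8.7e-06), as was Acta2, by 1.64 (SE 0.15, adjusted p = 2.45e-05). They are 2 of the 4 tested fibroblast markers, the other 2 being undetected in both neural lines, and their part in the transporter differences was not tested.

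Whether the pluripotent-minus-neural difference was equal in the pair of piPS-2F and pNSC and the pair of fESC and fNSC was tested as a difference of differences, (piPS-2F minus pNSC) minus (fESC minus fNSC). Of the 45 transporters, 8 were called higher and 12 lower, or 44.4%, where 28.6% of all genes tested were called (14.4% higher and 14.3% lower). The median was -0.21 for the 45 and 0.10 for all genes. Of these 20, 14 were detected on no array of at least 1 of the 4 lines compared, so the size of their value is not given here, since it takes a background signal for a level. The other 6 were Slc16a6, Slc1a4, Slc2a3, Slc38a2, Slc6a9 and Slc7a6os, and by 1 or more other probes the value of Slc16a6 and of Slc38a2 turned its sign. Slc6a9, at -2.21 (SE 0.27, adjusted p = 0.000166), fell further in piPS-2F against pNSC than in fESC against fNSC, and it was higher in pNSC than in fNSC. Slc3a2, undetected in piPS-2F, was the only transporter called in opposite directions in both pairs. Slc2a1, detected on every array, differed between the pairs by 0.76 (SE 0.20, adjusted p = 0.0107), under the 2-fold minimum. With median scaling the split was 5 higher and 13 lower, or 27.8% higher, where 32.7% of the calls over all genes were higher.

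RefSeq held a promoter for 66 of the 88 genes and 33 of the 45 tested. Windows of 300 bases were searched on both strands for the octamer ATTTGCAT bound by Oct4, for GGGNGTGG, a core bound by Klf factors, and for TGATGNAAT, a form of the amino acid response element through which Atf4 acts. Its shorter form TGATGNAA, which the longer one contains, was added after the Slc7a11 window had been seen. In the 33 genes the octamer was found in 1, Slc7a11, the Klf letters in 10, the longer response element in 0 and the shorter one in 3 (Slc1a4, Slc7a7 and Slc7a11), counting a gene with several promoters when any of them matched. Of all 32851 promoters, 1.74% held the octamer, 17.6% the Klf letters, 0.965% the longer response element and 3.97% the shorter one. These shares are per promoter and the counts above per gene, so they do not compare directly. The median promoter held the letters CG 7 times, against 32 in the Slc6a11 window, 15 in Slc3a2, 18 in Slc2a1 and 4 in Slc7a11. The part of base content in the Klf count was not tested. The Klf match begins at base 185 of the Slc6a11 window and base 258 of the Slc3a2 window printed above, both on the opposite strand, and the octamer at base 202 of the Slc7a11 window. The Slc7a11 window holds the shorter response element at base 185 and, on the opposite strand, at base 204, where it overlaps the octamer. The Slc2a1 window held none of these letters. The 10 genes with Klf letters went both ways in piPS-2F minus pNSC. Slc6a11, Slc3a2, Slc6a9, Slc16a9 and Slc7a10 fell, Slc38a8, Slc5a6 and Slc7a1 rose, and Slc16a10 and Slc7a6os were not called. Slc7a11 was undetected in piPS-2F. A match of letters is a description of the window only.

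Partners of the transporters were read from fixed lists. The counts below stand beside the 53.4% of all genes tested that were called in piPS-2F minus pNSC and the 48.6% in fESC minus fNSC. Emb, a chaperone that brings monocarboxylate carriers to the surface, rose by 4.82 (SE 0.19, adjusted p = 7.06e-09) in piPS-2F minus pNSC and 4.23 (SE 0.19, adjusted p = 1.81e-08) in fESC minus fNSC. Of 4 tested genes of the first steps of glucose use, 3 rose and 1 fell in piPS-2F minus pNSC, and 1 rose and 1 fell in fESC minus fNSC. Hk2, the hexokinase of growing tissues, rose by 5.55 (SE 0.12, adjusted p = 1.82e-10) and 4.10 (SE 0.12, adjusted p = 9.68e-10), and Hk1, the hexokinase of brain, differed by -1.84 (SE 0.14, adjusted p = 5.58e-07) and -1.81 (SE 0.14, adjusted p = 6.55e-07). Txnip, which restrains glucose uptake, was detected in piPS-2F and fNSC alone and was higher in piPS-2F cells than in pNSC, by at least 6.56-fold (adjusted p = 2.27e-07), at least 6.53-fold higher than in pESC-B and at least 4.99-fold higher than in fESC. Among 7 tested enzymes of glutamate, GABA and glutathione, 4 fell and none rose in piPS-2F minus pNSC, and 3 fell and 2 rose in fESC minus fNSC. Abat, which breaks down GABA, differed by -5.08 (SE 0.20, adjusted p = 5.45e-09) and -5.37 (SE 0.20, adjusted p = 4.1e-09), and Glul, which makes glutamine, was at least 5.72-fold lower in piPS-2F and differed by -1.49 (SE 0.25, adjusted p = 0.000327) in fESC minus fNSC.

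Of 14 tested genes of amino acid sensing at the lysosome, 2 rose and 4 fell in piPS-2F minus pNSC, 1 fell in fESC minus fNSC, 2 rose and 4 fell in piPS-2F minus fESC, and none was called in piPS-2F minus pESC-B. In the same order, 42.9%, 7.14%, 42.9% and 0% of the list were called, where it was 53.4%, 48.6%, 23.7% and 9.45% of all genes tested. Rraga, 1 of the small GTPases that recruit mTOR, was undetected in piPS-2F and pESC-B and was at least 3.78-fold lower in piPS-2F cells than in fESC (adjusted p = 2.19e-06). Lamtor2, a scaffold of these GTPases, differed by -1.97 (SE 0.16, adjusted p = 4.79e-06) there, and Sesn2, a leucine sensor, rose by 1.29 (SE 0.14, adjusted p = 3.23e-05). Of 7 vesicular transmitter carriers, 2 were tested (Slc17a8 and Slc32a1), and neither was called in piPS-2F minus pNSC. Slc17a8, detected in fNSC alone, was called lower in fESC minus fNSC, with means of 4.47 in fESC and 5.86 in fNSC. The dimmest detected signals on the fESC arrays were 5.85 and 5.98, so no least fold can be given and a fall is not shown. Slc32a1 was at least 1.41-fold higher in pESC-B than in fESC (adjusted p = 0.0171).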

How the data were processed

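Messenger RNA of 5 mouse cell lines, 2 arrays each, was read from deposited tables. The authors deposited background-subtracted intensity values, not normalized between arrays, with a detection p-value for each probe and array, per the file headers. The authors also deposited processed values on a log scale of unstated base, read here as log2. Its columns share 1 distribution and rank probes as their own arrays do (Spearman correlation 1). Per the submitters' processing notes the tools included lumi, RMA and BeadStudio 3.2, with no role given. How the detection p was computed, the probe design and the build are not given in the sources used here.

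Intensities were background-corrected by normexp on detection p with an offset of 16, quantile-normalized and put on the log2 scale with neqc (limma 3.58.1, R 4.3.3). Probes were kept at detection p under 0.01 on both arrays of at least 1 line, and the brightest kept probe stood for its gene. Of 25697 probes 23978 carry a symbol, and 9220 genes were tested, 13564 probes having been kept. One mean per line was fitted over all 10 arrays (5 residual degrees of freedom) with lmFit and eBayes, with Benjamini-Hochberg adjustment of p over the 9220 genes. Every adjusted p in the text comes from this limma fit, and with 2 arrays per line their number limits the precision. Calls required 2-fold or more together with an adjusted p under 0.05. The steps were tested on simulated data.

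Named in full were, per comparison, the 6 highest and 6 lowest called transporters without overlap of arrays, and a fixed list of genes. The members and lists were chosen with earlier results of these data known. Alternatives were an offset of 50, no background correction, median scaling, the authors' processed values, detection p under 0.05 or no filter, the mean of kept probes or every kept probe, the arrays of the comparison alone, the replicate number as a block, and each array left out in turn. Promoters came from RefSeq (GRCm38.p6).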

Additional observations from a re-analysis of the deposited data

Results flagged for a closer look

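For 20 transporters the difference between pluripotent and neural cells was not the same in the pair of piPS-2F and pNSC and the pair of fESC and fNSC. It was tested as (piPS-2F minus pNSC) minus (fESC minus fNSC) and called at an adjusted p under 0.05 in limma and at least 2-fold. The transporters with a negative value were Slc3a2 (-3.45), Slc16a6 (-2.53), Slc6a9 (-2.21), Slc6a11 (-2.16), Slc5a11 (-1.88), Slc5a4b (-1.69), Slc7a11 (-1.61), Slc7a6os (-1.38), Slc7a10 (-1.21), Slc2a3 (-1.09), Slc1a4 (-1.08) and Slc1a2 (-1.06). Those with a positive value were Slc6a2 (2.30), Slc5a3 (2.14), Slc38a2 (1.82), Slc38a9 (1.47), Slc7a8 (1.29), Slc2a6 (1.25), Slc1a5 (1.22) and Slc7a7 (1.09). Other kept probes gave -1.12 for Slc38a2, 0.20 and -0.99 for Slc16a6, 0.54 for Slc1a5, 0.63 for Slc7a7, and -0.12 and -1.30 for Slc1a2. Of these, only -1.12 and -1.30 were called. Leaving out 1 array ended the call for Slc1a2 (-0.91 without fNSC replicate 2), Slc1a4 (-0.88 without piPS-2F replicate 1, -0.92 without fESC replicate 2 and just under 2-fold without fNSC replicate 2), Slc2a6 (just under 2-fold without piPS-2F replicate 1) and Slc7a8 (without any 1 of 5 arrays, at 0.79 without fESC replicate 2). Of the 20, 14 were detected on no array of at least 1 of the 4 lines compared, so that their values take a background signal for a level there. It was 3 lines for Slc1a5, Slc5a11, Slc6a2, Slc7a10, Slc7a11 and Slc7a8, 2 lines for Slc1a2, Slc2a6, Slc5a4b, Slc6a11 and Slc7a7, and 1 line for Slc38a9, Slc3a2 and Slc5a3.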

How the results depend on the processing

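The count of called transporters was 29 in piPS-2F minus pNSC, 31 in fESC minus fNSC, 10 in piPS-2F minus pESC-B, 10 in piPS-2F minus fESC, 18 in pESC-B minus fESC, 10 in pNSC minus fNSC and 20 for the difference of differences. It left 1.5 times the main count under an offset of 50, where 4 were called in piPS-2F minus pESC-B and 13 for the difference of differences, and under median scaling, where 6 were called in piPS-2F minus pESC-B. The cause was not tested. Leaving out 1 array at a time gave 29 to 32, 30 to 32, 7 to 12, 9 to 13, 17 to 20, 8 to 13 and 16 to 22 in the same order. Between 45 and 48 transporters were tested in these fits, depending on the array left out. Tested on every kept probe, Slc38a2 reversed to -1.48 in piPS-2F minus fESC, -1.05 in pESC-B minus fESC and -1.12 for the difference of differences, and 1 of the other Slc16a6 probes to 0.30, 1.00 and 0.20, while the remaining one kept its sign at -0.63, -0.39 and -0.99. Median scaling moved the median of all genes from 0.03 to -0.45 in piPS-2F minus pNSC and from 0.10 to -0.18 for the difference of differences. Over all genes, an offset of 50 called 474 (5.14%) in piPS-2F minus pESC-B, against 871 in the main setting, and 686 in pNSC minus fNSC, against 1046. For the difference of differences that offset called 20.1% of all genes. Median scaling called 8.13% of all genes in piPS-2F minus pESC-B. Same-numbered arrays did not deviate together (correlations -0.12 to 0.09), so the numbers pair nothing, and the fit with the replicate block gave the same counts of 29, 31, 10, 10, 18, 10 and 20. Signal over background limits what the dim transporters show, above all in fESC.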
